A study of Mus musculus with 4 samples.

Results

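Epidermal cornification genes encode the proteins that keratinocytes use to build the cornified envelope, the cross-linked protein and lipid shell that replaces the plasma membrane as the cells die. They were taken as every probe set whose single annotated symbol began with Sprr or Lce followed by a digit, or was one of a fixed set of other envelope, keratin, protease and barrier genes, by name alone. On the array 42 probe sets of 38 genes met this rule, of 12393 genes with a single symbol in all. Of the names in the rule, 5 (Loricrin, Cnfn, Klk5, Sbsn and Abca12) had no such probe set.

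RNA of hair follicles, cut by laser from dorsal skin of mice 14 days old and pooled at 50 to 70 follicles per sample, was hybridised to 1-colour Affymetrix arrays. All 4 samples came from untreated males of the N1 generation, bred from a Hos:HR-1 male and a heterozygous F1 female of HR-1 and ICR parents. The control samples were heterozygous (+/HrHos, replicates 3 and 4) and the mutant samples homozygous (HrHos/HrHos, replicates 2 and 3) for the recessive allele of Hr. The titles, however, carry the prefix WT for the controls and HR for the mutants. By the genotypes given, though not by the WT of the titles, every sample carried at least 1 mutant allele. The title of homozygous replicate 3 carries the mutant prefix, but its strain field gives the heterozygous genotype and its source name the number of the other mutant. It was kept with the mutants by its title. The labels name no animal for each array, so the spread between samples may be partly technical.

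In the epidermis, keratinocytes leaving the basal layer first make Krt1 and Krt10, then envelope precursors such as involucrin, loricrin, small proline-rich (Sprr) and late cornified envelope (Lce) proteins. Transglutaminases cross-link these precursors, and proteases of the kallikrein (Klk) family later cut the junctions so that dead cells shed. In the hair follicle, cornification also takes place in the inner root sheath and the hair fibre, and the upper follicle canal is lined by cells like those of the epidermis.

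The Sprr and Lce genes share a position that the rule did not use. By their RefSeq records (assembly GRCm38.p6), 23 of the 38 members lay on chromosome 3 from Lor to Flg, in the epidermal differentiation complex, a stretch with 47 protein-coding genes. Their upstream sequences are shown because they set the Sprr and Lce families apart, though they lie in the same complex. They are the 250 bases before the start of each gene, from RefSeq (GRCm38.p6), 5′ to 3′ on the strand of the gene. Capitals mark TGANTCA, a site of the AP-1 transcription factors, and TATAAA, the TATA box core. Sprr1a, Sprr2h, Sprr2k, Lce1b and Lce3a passed the filter on low values, and Sprr2i did not.
Sprr1a, chr3:92485882-92486131, minus strand: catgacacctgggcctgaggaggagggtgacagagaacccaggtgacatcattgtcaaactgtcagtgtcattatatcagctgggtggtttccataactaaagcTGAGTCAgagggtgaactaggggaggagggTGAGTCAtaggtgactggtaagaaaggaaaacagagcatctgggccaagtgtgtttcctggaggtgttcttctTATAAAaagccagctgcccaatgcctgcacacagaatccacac
Sprr2h, chr3:92385435-92385684, plus strand: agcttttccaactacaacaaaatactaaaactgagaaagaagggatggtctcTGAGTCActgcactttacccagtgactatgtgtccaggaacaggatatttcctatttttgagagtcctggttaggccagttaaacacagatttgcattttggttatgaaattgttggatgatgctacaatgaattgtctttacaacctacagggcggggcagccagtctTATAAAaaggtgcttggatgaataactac
Sprr2k, chr3:92432332-92432581, plus strand: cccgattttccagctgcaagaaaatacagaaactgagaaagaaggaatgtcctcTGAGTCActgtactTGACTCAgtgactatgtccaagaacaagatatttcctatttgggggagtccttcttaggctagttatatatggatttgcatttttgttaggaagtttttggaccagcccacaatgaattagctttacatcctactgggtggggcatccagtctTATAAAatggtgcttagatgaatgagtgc
Sprr2i, chr3:92407741-92407990, plus strand: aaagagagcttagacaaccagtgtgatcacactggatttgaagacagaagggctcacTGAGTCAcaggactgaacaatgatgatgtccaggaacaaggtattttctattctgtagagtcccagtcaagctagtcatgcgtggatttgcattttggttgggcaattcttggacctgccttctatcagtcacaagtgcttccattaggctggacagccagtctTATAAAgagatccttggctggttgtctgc
Lce1b, chr3:92656927-92657176, minus strand: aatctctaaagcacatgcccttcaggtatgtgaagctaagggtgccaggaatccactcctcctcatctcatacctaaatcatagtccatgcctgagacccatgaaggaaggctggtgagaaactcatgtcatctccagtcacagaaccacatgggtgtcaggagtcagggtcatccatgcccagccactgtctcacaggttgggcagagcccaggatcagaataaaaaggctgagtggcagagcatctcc
Lce3a, chr3:92926231-92926480, minus strand: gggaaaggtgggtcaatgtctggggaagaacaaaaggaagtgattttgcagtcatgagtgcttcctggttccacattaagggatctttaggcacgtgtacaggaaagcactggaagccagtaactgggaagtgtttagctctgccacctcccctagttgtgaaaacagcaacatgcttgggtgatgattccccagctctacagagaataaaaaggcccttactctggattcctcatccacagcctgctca
Of the 8 Sprr members with an upstream sequence, 7 held TGANTCA on either strand and 8 held TATAAA. Of 10 Lce members, 0 held TGANTCA and 1 held TATAAA. Over all member genes, 15 of 36 upstream sequences (41.7%) held TGANTCA and 14 (38.9%) held TATAAA, and Lor, Flg and Ivl of the same complex held both. The 36 sequences came from 32 genes, so the same site of Dmkn counts more than once. Related Sprr2 sequences are not independent either. Among 32526 upstream sequences of the same length over all genes, 6.73% held TGANTCA and 12.3% TATAAA. A further search for AATAAA, chosen after the sequences were seen, found it in 6 of the 10 Lce members (60%) and 0 of the 8 Sprr members, against 18% of all upstream sequences. Each motif was counted also where it overlapped another. In Sprr2h, Sprr2k and Sprr2i the TATA motif began 29 bases before the start, and the upstream sequences of Sprr2h and Sprr2k were 80.6% identical over 252 aligned columns, against 63.6% for Sprr2h and Sprr2i and 44.8% for Sprr1a and Sprr2h. The motif thus occurred on both sides of the filter, in Sprr2h as in Sprr2i. A match is a description of the letters and not a measured binding site.

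**Figure D1:**
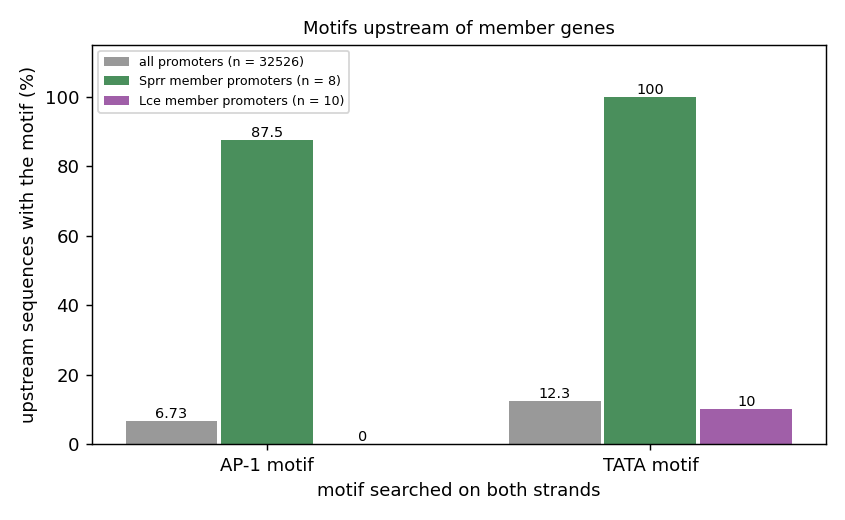
Share of upstream sequences (percent, y axis) that hold the AP-1 motif or the TATA motif on either strand, for all promoters and for the Sprr and Lce member genes. The Sprr bars reach 87.5% and 100%, and the Lce bars 0% and 10%.

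Of the 38 genes, 26 passed a filter that kept the 60% of probe sets with the highest mean level, and 12 did not. A gene was represented by its brightest probe set. The intensity of a probe set depends on its probes as well as on the transcript, so levels of different genes are not compared. The median intensity of an array lay between 43.5 and 52.6.

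The label names the epidermis, but the probe sets of several of its defining genes read low here, while Krt10, Tgm1 and 1 probe set of Lor passed the filter. The part of probe design or of shortened transcripts in the low readings was not tested. Krt1, the suprabasal partner of Krt10, read 22.2 and 27.5 in controls and 27.4 and 6.9 in mutants. Krt2, a keratin of the uppermost living layers, read 6.7 and 34.2 against 3.7 and 3.2. Flg, encoding filaggrin, which bundles keratin filaments, read 13.5 and 2.7 against 0.8 and 18.4. Each of these values was under its own array's median, as was every value of Ivl (involucrin), Casp14, the caspase that processes filaggrin, and Alox12b, a lipoxygenase of the barrier lipids.

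Ivl read 3.9 and 4.1 in controls and 3.6 and 4.7 in mutants, and Casp14 3.9 and 7.3 against 8.8 and 5.5. Alox12b read 2.3 and 3.0 against 4.5 and 2.8. Lor, encoding loricrin, had 3 probe sets of which 1 passed the filter. The other low members were Sprr2d, Sprr2i, Sprr2j-ps, Sprr3, Lce1f and Lce1l. Sprr2d read 18.7 and 7.0 against 36.8 and 8.1, Sprr3 28.4 and 3.7 against 4.2 and 30.9, and Sprr2i 6.3 and 5.3 against 3.4 and 2.8. Lce1f read 13.9 and 22.9 against 17.7 and 22.7, and the pseudogene Sprr2j-ps 5.9 and 7.5 against 3.8 and 7.1. Over the 12 genes the values ran from 0.8 to 45.8, and Lce1l had the highest of them, at 23.7 and 45.8 in controls against 1.0 and 1.3 in mutants. These genes were not in the main fit, since they did not pass the filter. In the alternative without a filter all 38 genes were fitted, and 0 passed at an adjusted p under 0.05.

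**Figure D2:**
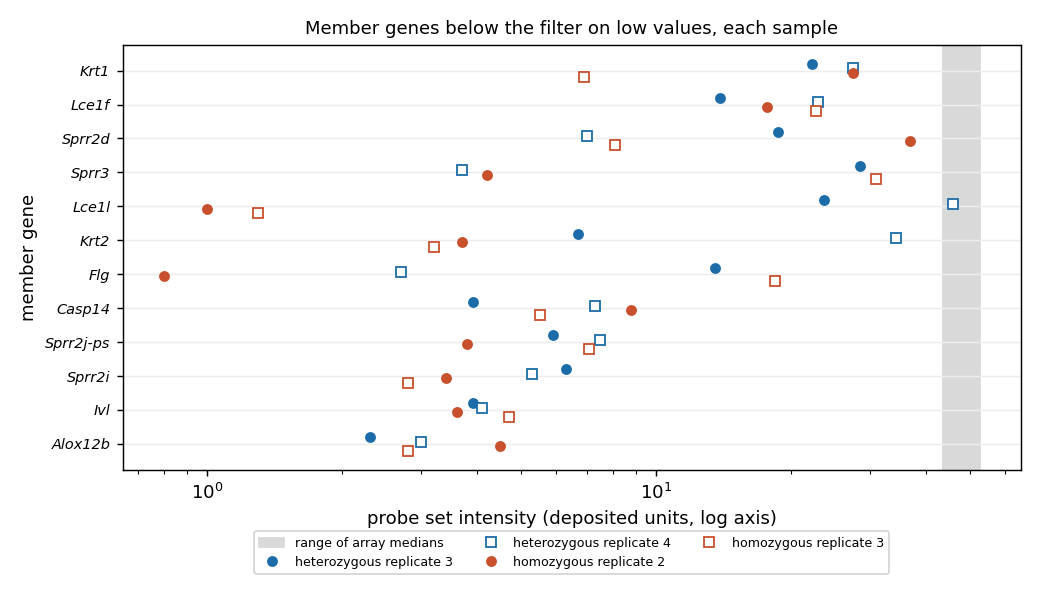
Intensity (x axis, log scale) of the 12 member genes below the filter in each of the 4 samples, blue for heterozygous and red for homozygous. The grey band spans the medians of the arrays (43.5 to 52.6), and the points lie below it apart from 1 value of Lce1l at 45.8, within the band but below the median of its own array.

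Markers of the labelled tissue were checked by the same filter. Of the hair shaft markers 10 of 11 passed, of the inner root sheath markers 7 of 7, and of the outer root sheath and companion layer markers 9 of 9. Markers of other cells passed as well, with 10 of 10 for dermal fibroblasts, 6 of 6 for adipocytes and 6 of 6 for melanocytes. Fewer passed for the sebaceous gland (6 of 7), leukocytes (5 of 8) and skeletal muscle (3 of 6). Among the members, those above the filter included Sprr1a, Sprr2f, Sprr2h, Scel, Cdsn, Klk7 and Dmkn, whose values all lay above the medians of the arrays.

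**Figure D3:**
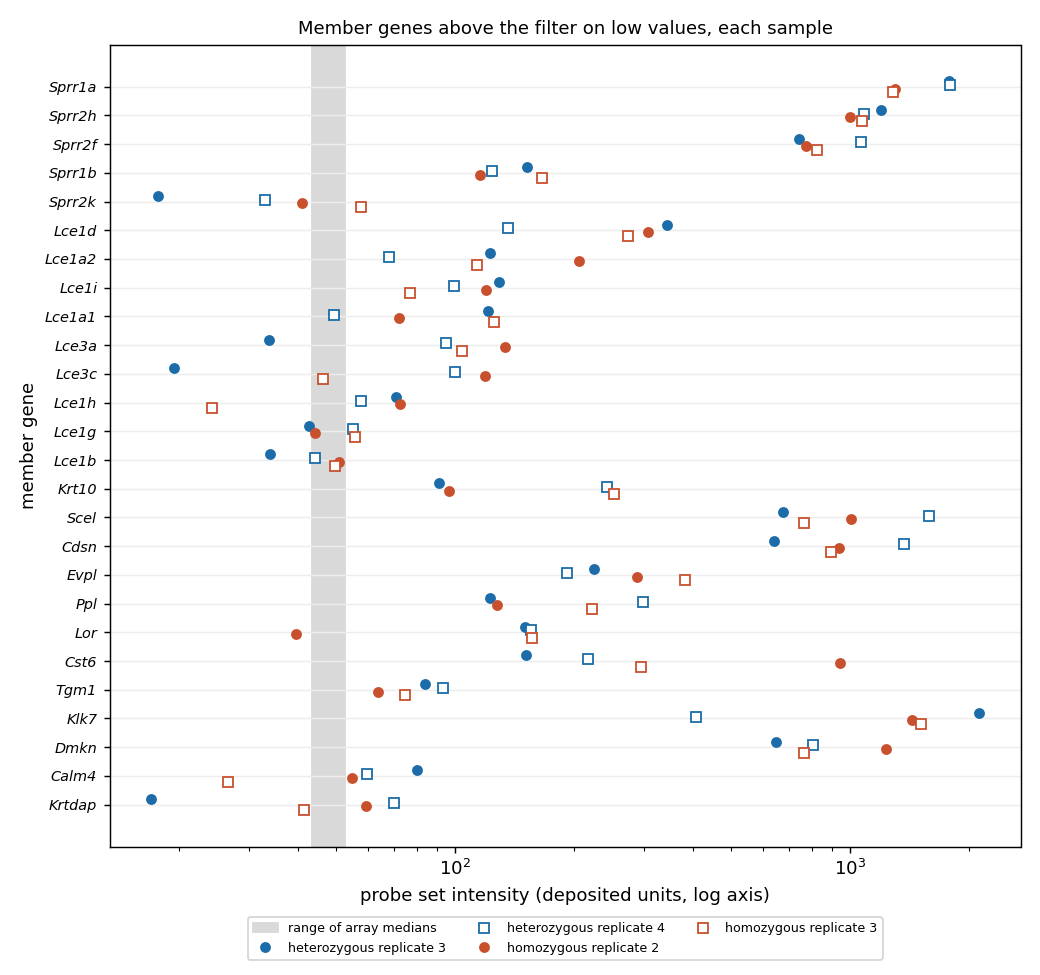
Intensity (x axis, log scale) of the 26 member genes above the filter in each of the 4 samples, ordered by role, blue for heterozygous and red for homozygous. In Klk7 and Cst6 single samples stand apart (405.8 and 941.1), while the samples of Sprr1a fall into a pair for each genotype.

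The comparison of homozygous with heterozygous follicles asks which transcripts differ when both copies of Hr, a nuclear corepressor needed for hair cycling, are mutant. Values were compared as log2(intensity + 32), so differences of low genes are understated, and limma was fitted over all 13576 kept probe sets. Of the 26 members 0 passed at a Benjamini-Hochberg adjusted p under 0.05, with limma and with its robust form (0.00% of all kept probe sets with limma), and every adjusted p was 1.00 with limma. At an unadjusted p under 0.05 there was 1 member, Cst6, or 3.85%, against 2.30% of all kept probe sets. The median log2 difference over the 26 genes was 0.04, against 0.01 over all kept probe sets, and 15 genes (57.7%) lay above 0, against 51.7%. In bulk follicles, fewer cells of a type and less RNA per cell cannot be told apart.

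In 5 of the 26 genes (19.2%) both mutant samples were above both controls, against 13.6% of all kept probe sets. These were Cst6, Lce3a, Evpl, Sprr2k and Lce1b. In 4 genes (15.4%) both lay below, against 13.3%, namely Calm4, Sprr1a, Tgm1 and Sprr2h. Together 26.9% of all kept probe sets had groups that did not overlap. The shares of members are near those of the array as a whole and are read as a description.

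**Figure D4:**
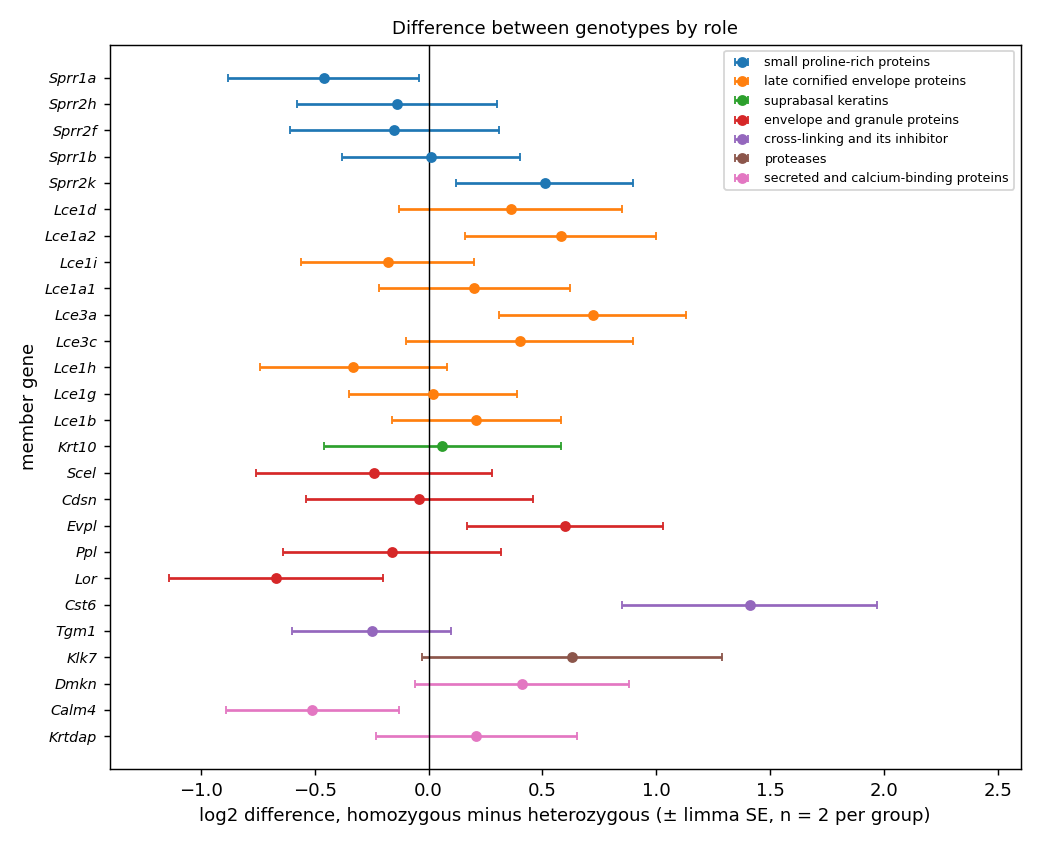
Log2 difference, homozygous minus heterozygous (x axis, with the standard error from limma, n = 2 per group), of the 26 member genes above the filter, coloured by role. The points run from -0.67 for Lor to 1.41 for Cst6, on both sides of 0 in every role with several genes above the filter.

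The Sprr proteins, small cross-bridges of the envelope, lay on both sides of 0 (2 of 5 kept genes above, 3 below, median -0.14). Sprr1a read 1779.7 and 1788.8 in controls and 1294.1 and 1283.8 in mutants. Its samples did not overlap, and the samples of each genotype lay within 0.01 (log2) of each other, the tightest agreement among the 26 members. The log2 difference was -0.46 ± 0.42 (SE, n = 2 per group; limma adjusted p = 1.00), a standard error that limma raises toward the spread of probe sets of similar brightness.

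Sprr2h read 1194.0 and 1082.9 against 998.0 and 1067.7, also without overlap but with a log2 difference of -0.14 ± 0.44. Its probe set carries the suffix that Affymetrix gave to probes shared by several transcripts, so near-identical Sprr2 genes may add to it. Sprr2f read 743.6 and 1064.9 against 774.7 and 822.0 (-0.15 ± 0.46), with overlap. Sprr2k ran the other way, at 17.7 and 33.0 against 40.9 and 57.6, a log2 difference of 0.51 ± 0.39 in a range around the medians of the arrays. With homozygous replicate 3 placed by its strain field among the controls, the difference was 0.14, and the groups overlapped. Sprr1b read 152.2 and 123.7 against 115.6 and 165.7, and its difference was 0.01 ± 0.39.

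The Lce proteins, precursors that join the envelope late, had 7 of 9 kept genes above 0 (77.8%, against 51.7% of all kept probe sets). Their median was 0.21 and their range -0.33 to 0.72. Close paralogs are not independent, so the count is read as a description. Lce3a read 33.7 and 94.9 in controls and 133.8 and 104.2 in mutants, a log2 difference of 0.72 ± 0.41. The groups did not overlap, although heterozygous replicate 4 lay closer to the homozygous samples than to replicate 3. Without heterozygous replicate 3 the difference was 0.24, and without replicate 4 it was 1.19. Lce1b read 33.9 and 44.2 against 50.8 and 49.7 (0.21 ± 0.37).

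Other Lce genes overlapped between genotypes. Lce1a2 read 122.1 and 68.1 against 205.4 and 113.4 (0.58 ± 0.42), Lce1d 342.6 and 135.6 against 308.3 and 273.8 (0.36 ± 0.49), and Lce3c 19.4 and 100.0 against 119.1 and 46.3 (0.40 ± 0.50). In Lce1d heterozygous replicate 4 was the low sample, and in Lce3c replicate 3. Lce1a1 read 120.7 and 49.4 against 72.0 and 125.0 (0.20 ± 0.42), and Lce1g 42.6 and 55.0 against 44.1 and 55.9 (0.02 ± 0.37). Lce1i read 129.2 and 99.2 against 119.9 and 76.9 (-0.18 ± 0.38), and Lce1h 70.8 and 57.7 against 72.4 and 24.2 (-0.33 ± 0.41). All 4 overlapped between genotypes. The 2 kept probe sets of Lce1a1 had the same sign (0.20 and 0.14). Among the member probe sets, 5 carry the suffix for probes that can cross-hybridise, all in the Lce family, where paralogs are close in sequence.

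Of the structural proteins, the plakin genes Evpl and Ppl encode partners. Envoplakin and periplakin together form a scaffold under the membrane on which the envelope is built. Evpl read 225.0 and 191.4 in controls and 287.8 and 380.8 in mutants, a log2 difference of 0.60 ± 0.43, without overlap. With homozygous replicate 3 placed by its strain field among the controls, the difference was 0.15, and the groups overlapped. Ppl read 122.3 and 298.6 against 127.9 and 222.1 (-0.16 ± 0.48), with 1 low and 1 high sample in each genotype.

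Krt10 showed the same split as Ppl, at 90.8 and 242.4 against 96.3 and 251.6. Its difference between genotypes was 0.06 ± 0.52, while the gap within each genotype was 1.16 and 1.14 (log2). Scel, encoding the envelope precursor sciellin, read 674.5 and 1583.9 against 1004.8 and 761.7 (-0.24 ± 0.52). Cdsn, encoding corneodesmosin, the adhesive protein of cornified cell junctions, read 642.3 and 1368.6 against 934.4 and 892.1 (-0.04 ± 0.50). In both genes heterozygous replicate 4 was the highest sample and replicate 3 the lowest.

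Lor read 150.4 and 155.7 in controls and 39.5 and 156.4 in mutants, a log2 difference of -0.67 ± 0.47. Homozygous replicate 2 alone was low, and without it the difference was 0.03. By the strain field of homozygous replicate 3 the Lor difference was -1.38. Another Lor probe set read 5.7 and 56.3 against 35.8 and 28.0, and the last read 4.7 and 5.3 against 7.5 and 7.4, so the probe sets did not give a common order of the samples.

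The widest difference among the members belonged to Cst6, encoding cystatin M/E, an inhibitor of cysteine proteases in cornifying cells. It read 151.2 and 216.4 in controls and 941.1 and 296.1 in mutants. Both mutant samples exceeded both controls, and homozygous replicate 2 lay far above the other. The log2 difference was 1.41 ± 0.56 (2.65-fold after 32 was added to each intensity, limma adjusted p = 1.00). It was 0.62 without homozygous replicate 2 and 2.19 without homozygous replicate 3. With homozygous replicate 3 placed by its strain field among the controls, it was 1.98. With 32 added to each intensity, an absolute log2 difference of 1 or more was found in 1 of 26 members and in 1.89% of all kept probe sets. With 1 added in its place, Lce3a also reached 1.05, and the share over all probe sets is not given.

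Tgm1, the transglutaminase that cross-links the envelope, read 83.6 and 92.9 against 63.9 and 74.8, without overlap and with a difference of -0.25 ± 0.35. Klk7, the serine protease that cuts corneodesmosin, read 2118.9 and 405.8 in controls and 1437.1 and 1509.9 in mutants. Its log2 difference was 0.63 ± 0.66, and heterozygous replicate 4 alone was low: without that sample the difference was -0.52.

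Among the secreted and calcium-binding proteins, Dmkn (dermokine) read 647.2 and 806.8 against 1231.3 and 765.2 (0.41 ± 0.47). Calm4, a calmodulin-like protein of differentiating keratinocytes, read 79.8 and 59.8 against 54.9 and 26.6, without overlap (-0.51 ± 0.38). By the strain field of homozygous replicate 3 the Calm4 difference was 0.04. Krtdap, a secreted peptide of the suprabasal layers, read 17.0 and 69.9 against 59.5 and 41.3 (0.21 ± 0.44), with heterozygous replicate 3 as the low sample.

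The spread between samples of the same genotype was wide beside these differences, as on the array as a whole. In 21 of the 26 members (80.8%) the wider of the gaps within a genotype was larger than the difference between the means of the genotypes, against 83.9% of all kept probe sets. The exceptions were Evpl, Lce1b, Sprr1a, Sprr2k and Tgm1. The heterozygous samples differed at least 2-fold from each other in 8 of 26 members (30.8%), against 17.7% of all kept probe sets. Replicate 4 was the higher in 6 of these 8 members (Cdsn, Krt10, Krtdap, Lce3c, Ppl and Scel) and replicate 3 in Klk7 and Lce1d. The homozygous samples differed by at least 1 on the same scale in 3 members (11.5%, namely Cst6, Krt10 and Lor), against 9.3% of all kept probe sets.

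**Figure D5:**
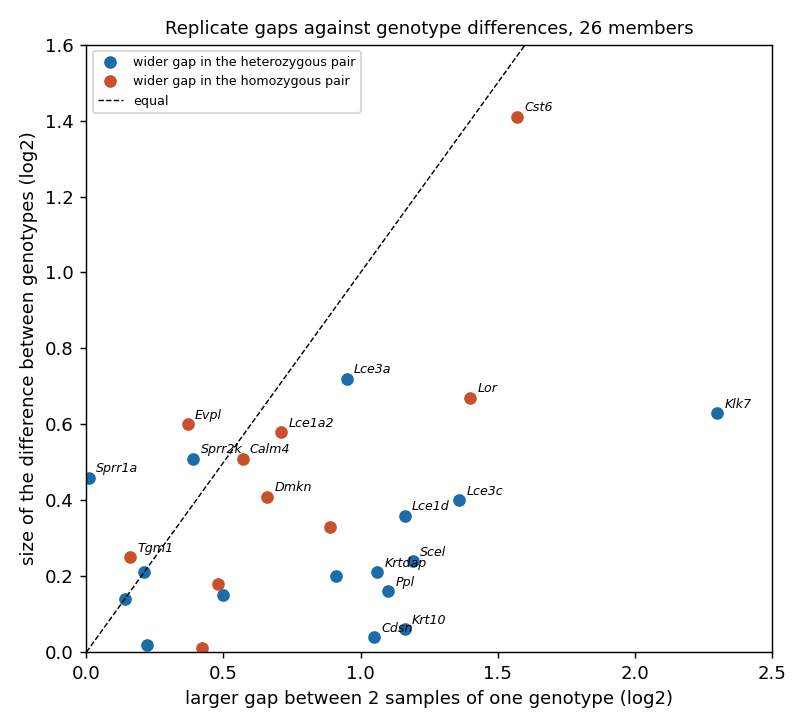
Size of the difference between genotypes (y axis, log2) against the wider gap between samples of one genotype (x axis, log2) for the 26 members above the filter, with a dashed line where they are equal. Of the points 21 lie below the line, with Klk7 farthest to the right at a gap of 2.30.

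The genes inside and outside the differentiation complex gave similar summaries. Of the 23 members on chromosome 3, 15 passed the filter, with a median log2 difference of 0.02 (range -0.67 to 0.72; 9 above 0). Of the 15 elsewhere 11 passed, with a median of 0.06 (range -0.51 to 1.41; 6 above 0).

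Other genes of the pathway, from 5 lists of non-members, had 50 of 58 genes above the filter, and 0 passed at an adjusted p under 0.05 (1 at an unadjusted p under 0.05). That gene was Smpd1, encoding the acid sphingomyelinase that makes barrier ceramides. It read 206.7 and 194.5 in controls and 419.3 and 433.8 in mutants (0.98 ± 0.43). Among the 8 barrier lipid enzymes the median difference was 0.13, with the fatty acid carrier Fabp5 at -0.41 ± 0.25 and the lipoxygenase Aloxe3 at -0.52 ± 0.41.

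Of 9 barrier proteases and inhibitors 8 lay above 0 (against 51.7% of all kept probe sets, median 0.49). In 4 of the 9 both mutant samples exceeded both controls (against 13.6% of all kept probe sets), while in 1, Serpinb5, both lay below (against 13.3%). Spint1, an inhibitor of the membrane protease matriptase, read 407.6 and 423.9 against 634.3 and 792.9 (0.73 ± 0.45), and Asprv1, the protease that trims filaggrin, 254.2 and 344.2 against 517.0 and 469.0 (0.68 ± 0.45). Cstb, another cystatin, differed by 0.51 ± 0.43. Of 8 basal keratinocyte genes 2 lay above 0 (against 51.7% of all kept probe sets) and 6 below (median -0.42). Bnc1, a zinc finger gene of basal cells, differed by -0.96 ± 0.46, the hemidesmosome collagen gene Col17a1 by -0.73 ± 0.45 and the cytolinker gene Dst by -0.42 ± 0.45.

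Of 14 other envelope and cross-linking genes 2 lay above 0 (against 51.7% of all kept probe sets) and 12 below (median -0.12). Tgm3, a transglutaminase of the hair follicle, stood at -0.57 ± 0.35 and the inner root sheath gene Tchh at -0.55 ± 0.36. The galectin gene Lgals7 had the largest value of this list (1.12 ± 0.62), with heterozygous replicate 4 low at 336.2. The 11 regulators of differentiation had a median of 0.07, with Gata3 at 0.53 ± 0.40, Sfn at 0.30 ± 0.42 and Klf4, a factor of barrier formation, at -0.32 ± 0.45.

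Some measures of the arrays and of neighbouring cells moved with genotype, and others did not. Both mutant samples read lower than both controls in 9 of 9 spiked-in hybridization controls, with a mean difference of -1.14 (log2 intensity). For Gapdh, the 3′ probe set over the middle one, a ratio that grows with shortened transcripts, gave 17.2 and 30.1 in controls against 15.4 and 14.8 in mutants. For Actb this ratio read 42.1 and 11.3 in controls and 45.9 and 33.7 in mutants, which overlap. The summed intensity of 11 hair shaft markers was 10495.2 to 11370.8 in controls and 15670.3 to 19007.5 in mutants, and that of 10 dermal fibroblast markers 9920.0 to 12644.1 against 6052.4 to 6306.8. That of 7 inner root sheath markers was 27335.8 to 30764.6 in controls against 22527.4 to 23691.4, and that of 6 adipocyte markers 11964.9 to 13127.2 against 5520.4 to 10049.3. A sum weighs bright genes most. By the median log2 deviation from each gene's mean, the inner root sheath list stood at 0.18 and -0.0 in controls and -0.02 and -0.01 in mutants. Of its genes 5 lay below 0 and 2 above, Krt72 (0.69) and Gata3 (0.53). The sums of the outer root sheath and companion layer, sebaceous gland, melanocyte, skeletal muscle and leukocyte lists overlapped between genotypes. The summed intensity of the 38 members was 9954.6 and 10460.6 in controls and 10743.3 and 9759.2 in mutants, which overlap. The part of these measures in the differences of single members, such as Sprr1a and Evpl, was not tested.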

How the data were processed

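Follicles of 4 samples were profiled on Affymetrix arrays from amplified RNA, per the labels' protocols. The deposited table holds a linear intensity for every probe set. Judged by its values, the authors had scaled each array to a common level, since trimmed means (without the lowest and highest 2%) ran from 164.5 to 164.7. For software, background correction and genome build, nothing is stated in the sources used here. Arrays have no read depth, and their number limits the precision.

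Intensities were transformed to log2(intensity + 32). Of 22690 probe sets, 64 controls were removed, and of the rest the brightest 60% by mean log2 value were kept (13576). Symbols came from the platform annotation of the series (20380 probe sets with 1 symbol, 691 with several, 1555 with none), and those with several, including 2 Sprr2 probe sets, name no member. All 38 members matched a RefSeq record. Of these 32 had an upstream sequence, and identities are from global alignments in Biopython 1.88. Genotypes were compared in R 4.3.3 by limma 3.58.1 (lmFit, then eBayes with a trend on intensity; 2 residual and 8.638 prior degrees of freedom), two-sided, with Benjamini-Hochberg adjustment over the whole kept table. An exact permutation test of 2 against 2 samples cannot go below p = 0.333. The rule for members uses names alone, but it and the lists were set with earlier results of these data known. Values by sample are given for the 10 brightest members, those whose groups do not overlap, the 6 with the widest range and the Sprr and Lce families, and for up to 3 genes of each other list by unadjusted p. Krt10, Ppl, Krtdap and the low members lie outside it and were picked with their values in view. The alternatives were other pseudocounts, no filter, quantile normalization, gene means, grouping by the strain field, robust eBayes and leaving out each sample.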

Additional observations from a re-analysis of the deposited data

How the results depend on the processing

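Member calls stayed at 0 under all 11 alternatives, and the fit never had more than 2 samples per genotype, apart from the grouping by the strain field (3 against 1, with the spread of the lone sample taken from the rest). The median log2 difference (0.04) lay between 0.03 and 0.12 under the alternatives that kept every sample, and between -0.08 (without heterozygous replicate 3) and 0.20 (without heterozygous replicate 4) when samples were left out in turn. Genes whose remaining mutant samples all lay above all remaining controls (5 with every sample) then numbered 9 to 14. Genes with all below (4 with every sample) numbered 6 to 9. A genotype with 1 sample overlaps less readily, and the shares over all probe sets under these settings are not given, so these counts are not read as a result. Without a filter, both mutant samples lay below both controls in 7 of 38 genes, again without the share over all probe sets. Of 18 single members named by the fixed rule, 10 kept their sign in every alternative. With 1 added to each intensity in place of 32, the difference was 1.05 for Lce3a, 0.97 for Sprr2k, -0.95 for Lor and -0.84 for Calm4. With 64 added, these differences were 0.55, 0.34, -0.52 and -0.36. By the strain field the difference turned to 0.04 for Calm4, 0.02 for Cdsn and 0.10 for Scel, Evpl went from 0.60 to 0.15 and Sprr2k from 0.51 to 0.14. Klk7 went from 0.63 to 0.38 and Sprr1a from -0.46 to -0.30. Other differences grew by the strain field, for Cst6 from 1.41 to 1.98, Lor from -0.67 to -1.38 and Lce3c from 0.40 to 0.90. Dmkn went from 0.41 to 0.72 and Lce1a2 from 0.58 to 0.86. When samples were left out in turn, the difference ran from -0.57 to 0.49 for Cdsn, -0.52 to 1.78 for Klk7, -0.22 to 0.94 for Lce1d, -0.28 to 1.08 for Lce3c (-0.07 without homozygous replicate 2), -1.37 to 0.03 for Lor, -0.83 to 0.36 for Scel and -0.40 to 0.10 for Sprr2f. It moved by over 1.5 times with the same sign for Calm4 (-0.79 to -0.22), Cst6 (0.62 to 2.19), Dmkn (0.08 to 0.74), Lce1a2 (0.23 to 0.93), Lce1b (0.11 to 0.32), Lce3a (0.24 to 1.19), Sprr2h (-0.20 to -0.07) and Sprr2k (0.31 to 0.70). The highest of Cdsn, Scel and Sprr2f and the lowest of Klk7 and Lce1d came without heterozygous replicate 4. The cause of these changes was not tested. No paired analysis was run, because no pairing of heterozygous with homozygous samples is given and a shared replicate number is not stated to be one. With 2 arrays per genotype and no detection calls, small differences and signal near background could not be resolved.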
